A study of Mus musculus with 2 samples.

Results

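The chemokine ligands of muscle stromal cells described here are 10 genes: the interferon-type ligands Cxcl9, Cxcl10 and Ccl5, the monocyte and eosinophil ligands Ccl2, Ccl7, Ccl8 and Ccl11, the neutrophil ligands Cxcl1 and Cxcl5, and the homeostatic ligand Cxcl12. They were taken by their gene names, and all 10 were found among the 26082 genes listed in both libraries. RNA was sequenced from primary mouse fibro-adipogenic progenitors (FAPs), the mesenchymal stromal cells that lie between muscle fibres. The comparison asks how the transcriptome of FAPs differs with the type III TGF-β receptor TGFBR3 in excess. There was 1 library per condition, so no spread between cultures could be measured and no test was made.

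Both libraries came from wild-type cells by the labels. One culture received plasmids for TGFBR3 overexpression (labelled TGFBR3 OE), and the other received the empty vector (labelled control). By the protocols, FAPs were induced to adipogenesis in medium that held insulin at 10 μg/ml, the glucocorticoid dexamethasone at 0.25 μM, the phosphodiesterase inhibitor IBMX at 0.5 mM and FBS at 20%, and nothing distinguishes the libraries in this respect. The study's methods name C57BL/6 mice, bought at an age of 6 to 8 weeks, and sorting of cells from hind limb muscle by flow cytometry. The number of mice behind each library, the time of collection, the promoter of the plasmid and the share of cells that took it up are not given in the sources used here.

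Chemokines are small secreted proteins that attract leukocytes through G protein-coupled receptors, and they are grouped as CC or CXC by the spacing of their first cysteines. Cxcl9 and Cxcl10 are classical targets of interferon signalling and call T and NK cells through Cxcr3, whereas Cxcl1 and many CC ligands are also targets of NF-κB. FAPs are known as a source of cytokines and chemokines in injured muscle, where leukocytes enter in waves.

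The library labelled TGFBR3 OE held 62321027 counts and the library labelled control 83779203 counts. Tgfbr3 itself was at 36.9 FPKM (fragments scaled by transcript length and library total, a level per length) in the former and 35.1 FPKM in the latter, with a log2 ratio of 0.07 that changed sign to -0.08 after centring. The overexpression that the label names was therefore not seen in these values. The libraries are named by their labels throughout, and every direction given here rests on those labels and would turn if they were exchanged. The measure of difference is the log2 ratio of (FPKM + 1), TGFBR3 OE over control, and at least 2-fold on this scale is a log2 ratio of 1 or more, or of -1 or less. A gene under 1 FPKM in both libraries cannot reach 2-fold on this scale, whatever its counts. Intervals are exact 95% Clopper-Pearson intervals on a gene's counts, and they cover counting error only. Among 10626 genes with at least 1 FPKM in both libraries the plain log2 ratio had a median of 0.15, so each ligand is also given as a centred log2 ratio, after subtracting this shift. A trend over GC content crossed the comparison as well, with a median log2 ratio of 0.42 in the lowest and -0.26 in the highest of 20 bins of genes, and values after its removal are given for the ligands and receptors where they differ in sign.

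Cxcl9, Cxcl10 and Ccl5 (3 of 10) had at least 2-fold more mRNA in the library labelled TGFBR3 OE, and Cxcl12 (1 of 10) had at least 2-fold less. Over all 26082 genes the corresponding shares were 1.41% higher and 0.475% lower. Among the 11213 genes with a mean of at least 1 FPKM, which hold all 10 ligands (Ccl5 only through its level in the library labelled TGFBR3 OE), they were 3.14% and 1.03%. The ligands thus divided into a class that was higher by a wide margin, classes that lay within the bulk of genes, and 1 gene that was lower.

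To show the sequence in front of ligands of differing behaviour, the 250 bases before the start are printed 5′ to 3′ on the gene's strand for Cxcl10 and Cxcl9, which were higher in the library labelled TGFBR3 OE, for Cxcl1, which was near equal, and for Cxcl12, which was lower. The sequences are from RefSeq (GRCm38.p6), where 5 of the 10 ligands matched, namely these and Ccl8. The window of Cxcl10 is chr5:92348890-92349139 (minus strand), that of Cxcl9 chr5:92328080-92328329 (minus strand), that of Cxcl1 chr5:90890995-90891244 (plus strand) and that of Cxcl12 chr6:117168285-117168534 (plus strand). Capitals mark matches on either strand to an interferon-stimulated response element, spelled GAAANNGAAA, or to a κB element, spelled GGGNNNTTCC. A STAT element, spelled TTCNNNGAA, was also searched.
Cxcl10: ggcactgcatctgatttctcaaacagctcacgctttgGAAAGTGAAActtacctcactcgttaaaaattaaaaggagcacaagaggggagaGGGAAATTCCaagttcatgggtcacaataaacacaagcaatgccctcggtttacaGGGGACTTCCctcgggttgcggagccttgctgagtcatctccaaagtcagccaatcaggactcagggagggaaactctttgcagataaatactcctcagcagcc
Cxcl9: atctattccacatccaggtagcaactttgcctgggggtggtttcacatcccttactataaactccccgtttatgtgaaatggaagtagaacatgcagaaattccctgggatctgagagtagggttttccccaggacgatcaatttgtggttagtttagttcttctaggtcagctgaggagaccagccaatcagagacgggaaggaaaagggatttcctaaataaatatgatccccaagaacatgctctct
Cxcl1: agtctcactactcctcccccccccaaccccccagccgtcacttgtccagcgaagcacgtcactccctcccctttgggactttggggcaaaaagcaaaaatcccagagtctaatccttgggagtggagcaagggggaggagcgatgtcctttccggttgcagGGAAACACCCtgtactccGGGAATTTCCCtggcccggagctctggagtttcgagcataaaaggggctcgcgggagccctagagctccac
Cxcl12: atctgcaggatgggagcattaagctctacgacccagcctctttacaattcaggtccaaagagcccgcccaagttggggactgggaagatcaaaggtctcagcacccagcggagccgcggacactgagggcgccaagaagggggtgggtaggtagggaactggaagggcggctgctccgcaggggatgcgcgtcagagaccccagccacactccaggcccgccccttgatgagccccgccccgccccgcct

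The Cxcl10 window held 1 match to the interferon element, GAAAGTGAAA, from 213 to 204 bases before the start. It also held 2 matches to the κB element, GGGAAATTCC from 159 to 150 bases before the start and GGGGACTTCC from 104 to 95. The Cxcl1 window held κB matches at 2 places. One, GGAAACACCC, lay on the other strand from 89 to 80 bases before the start. The other is nearly its own reverse complement, and it matched as GGGAATTTCC from 71 to 62 and, on the other strand, as GGAATTTCCC from 70 to 61. None of the 3 spellings occurred in the windows of Cxcl9, Cxcl12 or Ccl8, and the STAT spelling occurred in none of the 5. Among 32817 RefSeq windows of the same length, 2.97% held the interferon spelling, 7.02% the STAT spelling and 4.65% the κB spelling. By composition the Cxcl12 window stood at 64.4% GC with 14 CpG dinucleotides, against 44.4% GC and 3 CpG dinucleotides for Cxcl9. The window of Cxcl1 held 59.2% GC and 10 CpG dinucleotides, that of Cxcl10 48% and 5, and that of Ccl8 44.8% and 1. Composition thus did not sort these 5 windows by the direction of the ligand.

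Cxcl9 (ENSMUSG00000029417), a ligand of Cxcr3 that is classically induced by interferon γ, had 140.52 FPKM from 28753 counts in the library labelled TGFBR3 OE and 1.61 FPKM from 451 counts in the library labelled control. Its log2 ratio was 5.76 (95% interval 5.67 to 5.84), and 5.61 after centring. As a plain fold, taken from the counts and put on the FPKM scale, this is 86.8 (79.1 to 95.5). By level, Cxcl9 stood at rank 319 of the 11213 expressed genes in the former library and at rank 9641 in the latter. Only 1 expressed gene had a higher log2 ratio.

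Ccl5 (ENSMUSG00000035042), also known as RANTES and a ligand of Ccr1 and Ccr3, was that gene. It had 106 FPKM from 6921 counts in the library labelled TGFBR3 OE and 0.66 FPKM from 60 counts in the library labelled control. The log2 ratio was 6.01 (5.82 to 6.12), centred 5.86, and the plain fold 157 (122 to 206), whose wide interval follows from the 60 counts. By level it stood at rank 437 of the 11213 expressed genes in the library labelled TGFBR3 OE. Its control level was under 1 FPKM, so no rank is given there.

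Cxcl10 (ENSMUSG00000034855), the second Cxcr3 ligand, had 48.8 FPKM from 7460 counts in the library labelled TGFBR3 OE and 1.95 FPKM from 406 counts in the library labelled control. The log2 ratio of 4.08 (3.98 to 4.18), centred 3.93, was the 11th highest of the expressed genes. The gene Art3, on the opposite strand, overlaps it. Art3 had 4.89 and 2.79 FPKM, a small part of the Cxcl10 level in the former library but above it in the latter. The library preparation marked the strand by the labels, and whether the counting used it is not stated in the sources used here.

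The order within this class turned over. In the library labelled control, Cxcl10 was the most abundant of the interferon-type ligands, then Cxcl9, then Ccl5, whereas in the library labelled TGFBR3 OE the order was Cxcl9, Ccl5, Cxcl10. The ratio of Cxcl9 to Cxcl10 in FPKM was 2.88 in the library labelled TGFBR3 OE and 0.826 in the library labelled control, a difference of 3.47-fold (3.03 to 3.98). The ratio of Ccl5 to Cxcl10 was 2.18 and 0.338, a difference of 6.28-fold (4.78 to 8.25), and that of Ccl5 to Cxcl9 was 0.756 and 0.410, a difference of 1.81-fold (1.38 to 2.37). Such ratios within a library do not depend on how the libraries were scaled. The fold differences were computed from the counts, so they depart slightly from the quotients of the printed FPKM ratios. Their intervals exclude 1 and hold only counting error. They do not cover reads of Art3 counted for Cxcl10, if the counting did not use the strand. In the library labelled control Art3 was at 2.79 FPKM and Cxcl10 at 1.95 FPKM. The place of Cxcl10 in the control order and its ratios are therefore uncertain.

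**Figure D1:**
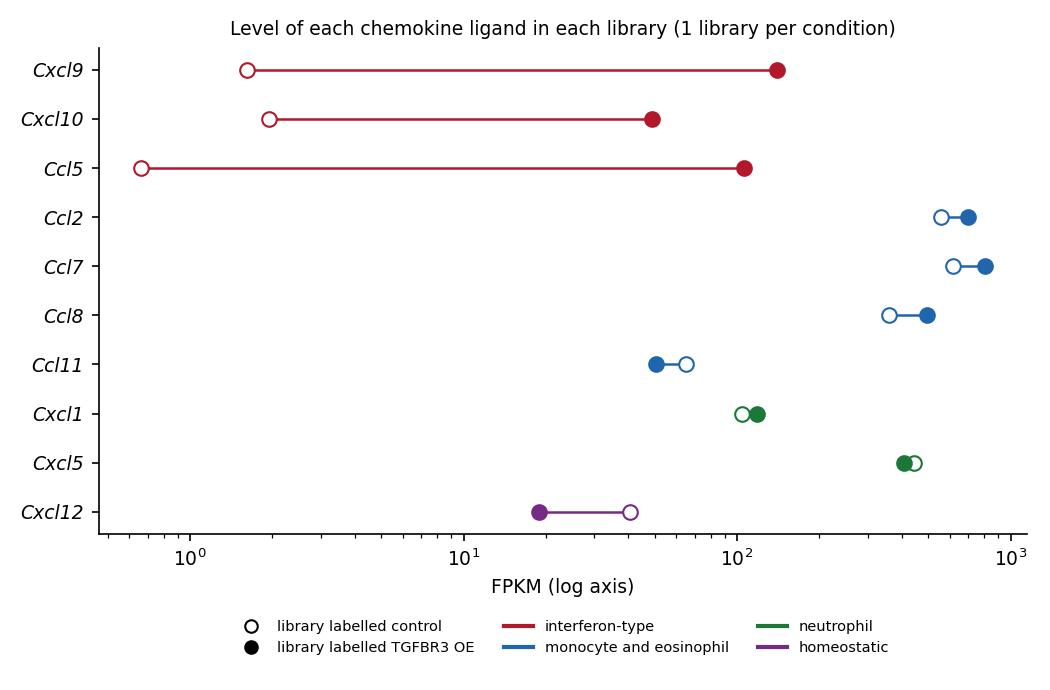
Level of each of the 10 ligands in FPKM on a log axis, with an open circle for the library labelled control and a filled circle for the library labelled TGFBR3 OE, coloured by class (1 library each, no error bars). Cxcl9, Cxcl10 and Ccl5 span from at most 1.95 FPKM to at least 48.8 FPKM, while Ccl2, Ccl7, Ccl8 and Cxcl5 stay at 359 FPKM or more in both libraries.

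The monocyte and eosinophil ligands were already abundant in the library labelled control. Ccl2 (ENSMUSG00000035385), known as MCP-1 and the main ligand of Ccr2 on inflammatory monocytes, had 697 FPKM from 53824 counts in the library labelled TGFBR3 OE and 559 FPKM from 58789 counts in the library labelled control. Its log2 ratio was 0.32 (0.30 to 0.33) and centred 0.16, and it changed sign to -0.04 with the GC trend removed. Ccl7 (ENSMUSG00000035373), which also binds Ccr2, was the most abundant of the 10 ligands in both libraries, at 806 FPKM from 43801 counts and 616 FPKM from 45585 counts. Its log2 ratio was 0.39 (0.37 to 0.41), centred 0.23, and 0.0062 with the GC trend removed. Neither gene thus stood apart from the general shift by a margin that held under the GC setting.

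Ccl8 (ENSMUSG00000009185), a ligand of Ccr8 in the mouse, had 495 FPKM from 17168 counts in the library labelled TGFBR3 OE and 359 FPKM from 16960 counts in the library labelled control. The log2 ratio was 0.46 (0.43 to 0.49), centred 0.31 and 0.19 with the GC trend removed. Ccl11 (ENSMUSG00000020676), or eotaxin, attracts eosinophils through Ccr3. It had 50.6 FPKM from 3715 counts and 64.9 FPKM from 6490 counts, so it was the only one of these 4 ligands that was lower in the library labelled TGFBR3 OE. Its log2 ratio was -0.35 (-0.41 to -0.30), centred -0.50, and -0.73 with the GC trend removed. None of the 4 reached 2-fold in either direction.

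Ccl11 separated from its neighbours in the gene cluster. The ratio of Ccl8 to Ccl11 in FPKM was 9.79 in the library labelled TGFBR3 OE and 5.53 in the library labelled control, a difference of 1.77-fold (1.69 to 1.85). For Ccl7 to Ccl11 the difference was 1.68-fold (1.61 to 1.75) and for Ccl2 to Ccl11 it was 1.60-fold (1.53 to 1.67). Among the other 3 ligands the proportions differed less. The ratio of Ccl7 to Ccl2 was 1.16 and 1.10, a difference of 1.05-fold (1.03 to 1.07), that of Ccl8 to Ccl7 differed by 1.05-fold (1.03 to 1.08) and that of Ccl8 to Ccl2 by 1.11-fold (1.08 to 1.13).

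The neutrophil ligands bind Cxcr2. Cxcl1 (ENSMUSG00000029380), also called KC, had 118 FPKM from 15058 counts in the library labelled TGFBR3 OE and 104 FPKM from 17996 counts in the library labelled control. The log2 ratio was 0.19 (0.16 to 0.22), centred 0.03, and it changed sign to -0.10 with the GC trend removed. Cxcl5 (ENSMUSG00000029371), or LIX, had 408 FPKM from 51548 counts and 444 FPKM from 76478 counts. Its log2 ratio was -0.12 (-0.14 to -0.11), centred -0.28, and -0.55 with the GC trend removed. The ratio of Cxcl1 to Cxcl5 was 0.290 and 0.234, a difference of 1.24-fold (1.21 to 1.27), and Cxcl5 was the more abundant in both libraries. Neither ligand reached 2-fold in either direction.

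Cxcl12 (ENSMUSG00000061353), or SDF-1, retains haematopoietic cells and guides migrating cells through Cxcr4. It had 18.9 FPKM from 10473 counts in the library labelled TGFBR3 OE and 40.7 FPKM from 30733 counts in the library labelled control. The log2 ratio was -1.07 (-1.10 to -1.04), the centred log2 ratio -1.21, and the value with the GC trend removed -1.19. On the plain scale its FPKM was 2.15-fold lower (2.11 to 2.20). Cxcl12 ranked 89th from the bottom among the 11213 expressed genes by log2 ratio. In the library labelled control it was more abundant than each of the interferon-type ligands, and in the library labelled TGFBR3 OE it was less abundant than each of them. The nearest ligand outside the 2-fold threshold on the lower side was Ccl11, and on the higher side Ccl8.

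**Figure D2:**
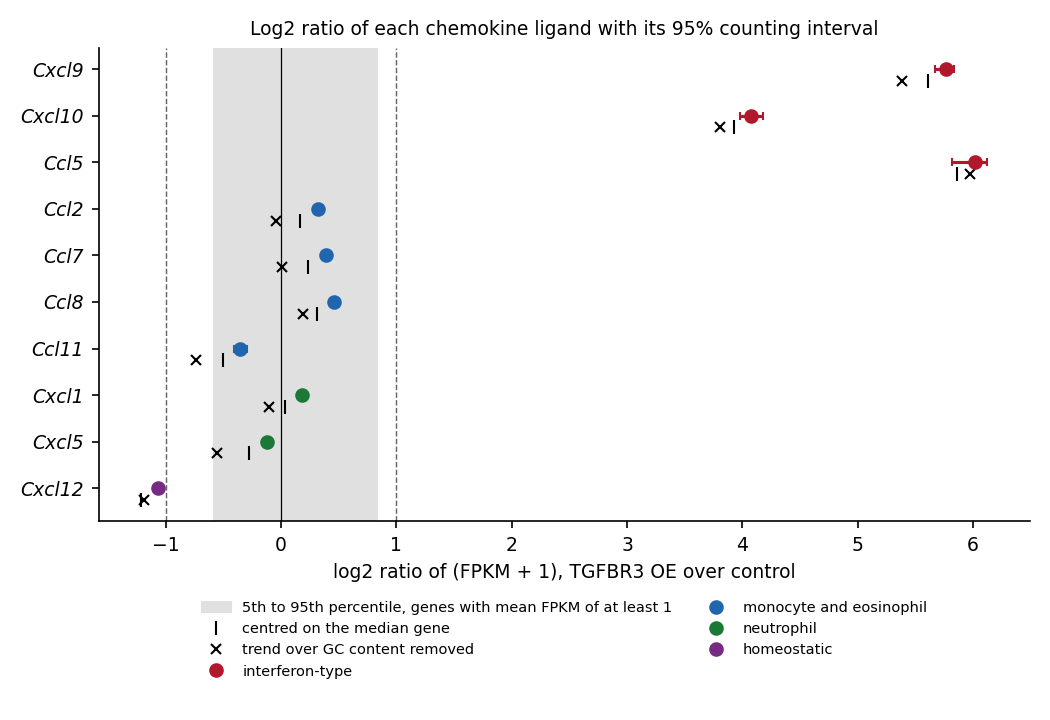
Log2 ratio of (FPKM + 1), library labelled TGFBR3 OE over library labelled control, for each ligand with its 95% counting interval. Vertical ticks give the centred value and crosses the value with the GC trend removed, the grey band runs from -0.58 to 0.83 (5th to 95th percentile of the expressed genes) and dashed lines mark 2-fold. Ccl5, Cxcl9 and Cxcl10 lie far to the right of the band and Cxcl12 to its left, and the points of the other 6 ligands lie inside it.

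By class, the interferon-type ligands summed to 296 FPKM in the library labelled TGFBR3 OE and 4.22 FPKM in the library labelled control, which is 70.0-fold, with a median log2 ratio of 5.76. The monocyte and eosinophil ligands summed to 2049 and 1599 FPKM. Their median log2 ratio was 0.35, over a range of -0.35 to 0.46, and it passed to -0.018 with the GC trend removed. The neutrophil ligands summed to 526 and 548 FPKM with a median log2 ratio of 0.03, which passed to -0.12 after centring, -0.33 with the GC trend removed and -0.0072 with a trend over transcript length removed. For comparison, the median over all 11213 expressed genes was 0.14, with quartiles of -0.14 and 0.40. The sign of the small class medians thus depended on the scaling, while that of the interferon-type class and of Cxcl12 did not under any of the settings tried.

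All 10 ligands together made 2890 FPKM in the library labelled TGFBR3 OE and 2192 FPKM in the library labelled control, a fold of 1.32, or 1.18 after centring. In counts this was 0.383% and 0.303% of each library. Of the summed FPKM, the interferon-type class held 10.2% and 0.192%, the monocyte and eosinophil class 70.9% and 72.9%, the neutrophil class 18.2% and 25.005%, and Cxcl12 0.653% and 1.86%. The same 4 ligands, Ccl7, Ccl2, Cxcl5 and Ccl8, led the pool in both libraries and made up 83.3% and 90.3% of it. In absolute terms the interferon-type class differed by 291 FPKM and the monocyte and eosinophil class by 450 FPKM, or by 261 and 243 FPKM after centring. Which class differed more in amount thus depended on the scaling.

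**Figure D3:**
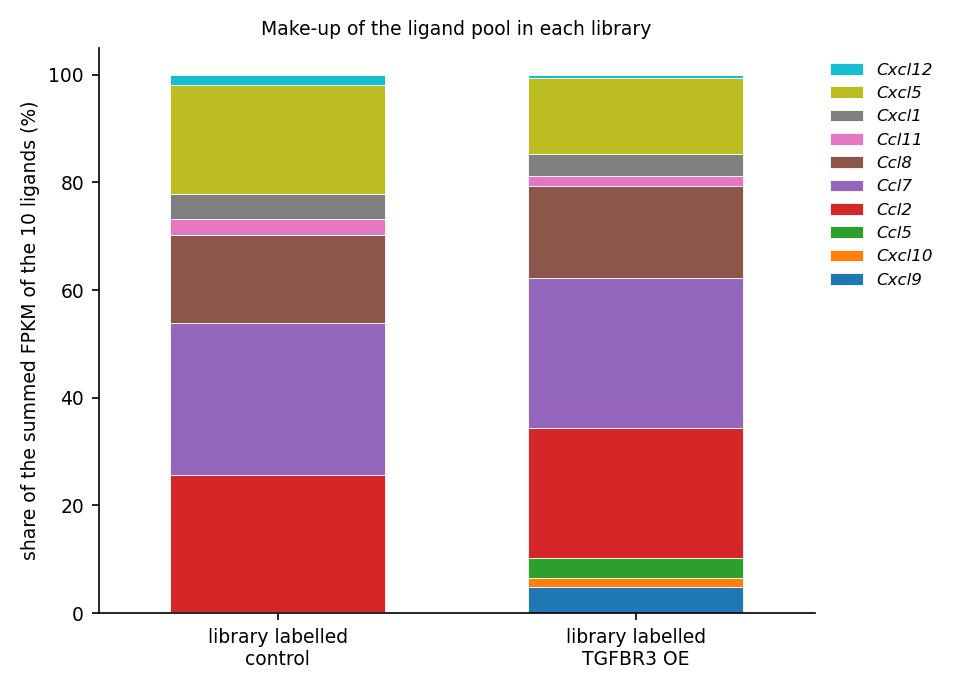
Share of the summed FPKM of the 10 ligands held by each of them, as stacked bars in percent, for the library labelled control and the library labelled TGFBR3 OE (1 library each). The interferon-type segments are barely visible in the control bar (0.192%) and take 10.2% in the other, while Ccl7 and Ccl2 keep the largest shares in both.

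The position of the genes was compared with these differences (mm10, GENCODE M21). Ccl2 (chr11:82035571-82037453), Ccl7 (chr11:82045712-82047525), Ccl11 (chr11:82057823-82062955) and Ccl8 (chr11:82115185-82116799) lie on the plus strand of one cluster. Between Ccl11 and Ccl8 lies Ccl12, a further monocyte ligand, which had 0 counts in both libraries. Beyond Ccl8 lies Ccl1, with 0 and 5 counts. Ccl5 lies further along on the minus strand (chr11:83525778-83530518), and its nearest ligand, Ccl9, 42400 bases away, was at 1.84 and 1.55 FPKM. The largest log2 ratio of the family and a value near the median of all genes thus belonged to neighbouring ligand genes.

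On chromosome 5, Cxcl9 (chr5:92321347-92328079, minus strand) and Cxcl10 (chr5:92346638-92348889, minus strand) are 18558 bases apart, and Cxcl11, the remaining Cxcr3 ligand, follows after 10654 bases. Cxcl11 had 23 counts, only 0.09 FPKM, in the library labelled TGFBR3 OE and 0 in the library labelled control. With the 0 set to the floor of 3 counts this is 10.4-fold higher. The counting interval of the fold starts at 7.83. All the Cxcr3 ligands listed here were thus higher in the same library, with levels that differed by orders of magnitude. Cxcl5 (chr5:90759360-90761624) and Cxcl1 (chr5:90891241-90893115) lie on the plus strand of a second cluster with Ppbp, Pf4, Cxcl3 and Cxcl2. Ppbp had 26 and 53 counts, Pf4 0 and 12 counts and Cxcl3 204 and 111 counts. Cxcl2 lies 10755 bases beyond Cxcl1 and is described with the other ligands. Cxcl12 lies alone on chromosome 6 (chr6:117168535-117181367, plus strand). Between 0% and 0.87% of the 31-base words in the ligands' exons occurred in another gene, so near-identical copies could claim few of their reads. A gene on the opposite strand of Ccl2, Gm17268, was not analysed here.

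Among other chemokine ligands, 22 of 31 listed were analysed and the rest were not analysed here. Of these 22, 1 was at least 2-fold higher, Cxcl2, and 1 at least 2-fold lower, Cxcl14, beside 1.41% and 0.475% of all genes. Cxcl2, a further Cxcr2 ligand, had 3.48 FPKM from 492 counts in the library labelled TGFBR3 OE and 1.03 FPKM from 199 counts in the library labelled control. Its log2 ratio was 1.14 (0.99 to 1.28), and 0.85 with the GC trend removed, which is under 2-fold. Its level was far below those of Cxcl1 and Cxcl5. Cxcl14, a CXC ligand expressed by many stromal and epithelial cells, had 20.8 FPKM from 2574 counts and 74.2 FPKM from 12527 counts, and its log2 ratio was -1.79 (-1.85 to -1.73). Cxcl14 and Cxcl12 were thus the ligands with a level above 10 FPKM that were at least 2-fold lower.

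The remaining ligands of measurable level lay close to equal. Cxcl16, a membrane-bound ligand of Cxcr6, had a log2 ratio of 0.14, which changed sign to -0.01 after centring, and Cx3cl1, the membrane-bound fractalkine, one of -0.12. In the CC group only Ccl9 and Ccl20 had a mean of at least 1 FPKM, with log2 ratios of 0.16 and 0.11, which changed sign to -0.23 and -0.32 with the GC trend removed. Ccl20 was also at -0.0017 after centring. The median log2 ratio was 0.0078 over the 4 CXC, CX3C and XC ligands of that level and 0.13 over the 2 CC ligands.

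**Figure D4:**
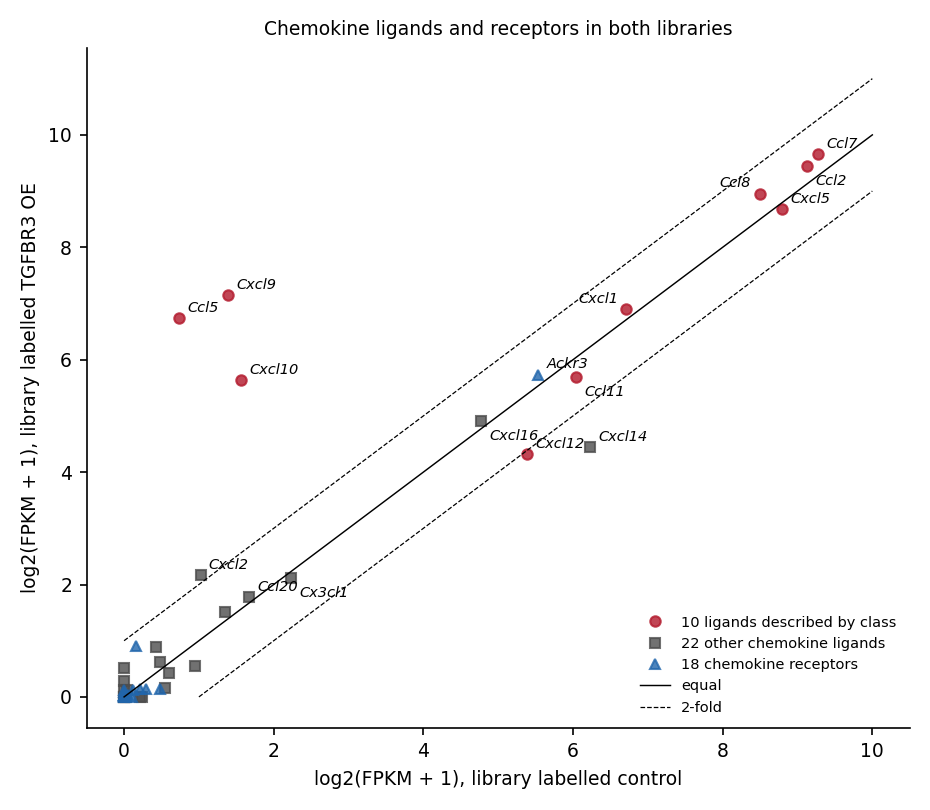
Level of each chemokine gene as log2(FPKM + 1) in the library labelled control (horizontal) and the library labelled TGFBR3 OE (vertical), for the 10 ligands, 22 other ligands and 18 receptors, with lines for equal levels and for 2-fold. The 3 interferon-type ligands stand far above the line of equal levels, Cxcl12 and Cxcl14 lie below the lower 2-fold line, and all receptors except Ackr3 lie near the origin, under 1 on both axes.

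The chemokine receptors analysed had little mRNA in either library, apart from Ackr3. Over all genes 1.41% were at least 2-fold higher and 0.475% lower. Of 18 receptors analysed out of 23 listed, 0 were at least 2-fold higher and 0 at least 2-fold lower on the log2(FPKM + 1) scale. Every receptor except Ackr3 was under 1 FPKM in both libraries and could not reach 2-fold on this scale. The count of 0 therefore says nothing about those receptors. Without a pseudocount, which leaves out genes at 0 FPKM in either library, 2 were at least 2-fold higher and 2 lower. Ackr3, an atypical receptor that scavenges Cxcl12, was the only one with a mean of at least 1 FPKM. It had 52.2 FPKM from 11852 counts in the library labelled TGFBR3 OE and 45.4 FPKM from 14047 counts in the library labelled control, with a log2 ratio of 0.20 (0.16 to 0.23) and 0.05 after centring. Ackr3 thus stood near equal between the libraries where Cxcl12 differed.

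The signalling receptors analysed were all under 1 FPKM in both libraries. Ccr1 had 19 counts in the library labelled TGFBR3 OE and 102 in the library labelled control, which in FPKM is 3.94-fold lower (2.40 to 6.81). Cxcr4 had 0 and 15 counts. Ccr3 had 20 and 0 counts, and Ccr2 had 4 and 0. The scavenging receptors Ackr1 and Ackr2 had 9 and 12, and 4 and 0 counts. Cxcr2, Cxcr3 and Ccr8 were not analysed here. The ligands were therefore present in these cultures with little mRNA of the receptors measured, apart from Ackr3.

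Genes of the interferon and the NF-κB side were read, and both lists mix regulators with genes that the same pathways induce. Of 13 interferon-side genes analysed, 3 were at least 2-fold higher and 0 lower, beside 1.41% and 0.475% of all genes. The median log2 ratio over the list was 0.42. Of the 12 with a mean of at least 1 FPKM, 10 had a log2 ratio above 0 and 2 below 0. The median over all expressed genes was itself above 0, at 0.14. The smallest in size among the 12 genes were Ifnar1 (0.03), Tyk2 (-0.06), Ifngr1 (0.08) and Ifngr2 (-0.19). After centring, Ifnar1 and Ifngr1 changed sign to -0.11 and -0.07, so the split above and below 0 depended on the scaling. Irf7, a transcription factor induced by interferon, was at 279 FPKM in the library labelled TGFBR3 OE and 20.98 FPKM in the library labelled control, with a log2 ratio of 3.67. Stat2, a transducer of type I interferon signalling, had 48.5 and 17.6 FPKM (log2 ratio 1.41), and Irf9, its partner, had 26.8 and 13.2 FPKM (log2 ratio 0.97). Ifnb1, the interferon β gene, had 9 and 3 counts, and Ifng was not analysed here.

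Of 15 NF-κB-side genes, 1 was at least 2-fold higher and 0 lower, beside 1.41% and 0.475% of all genes. The median log2 ratio over the list was 0.12. The higher gene was Il6, the cytokine interleukin 6, at 8.05 and 1.83 FPKM (log2 ratio 1.68). Tnfaip3, the feedback inhibitor A20, had 5.14 and 2.25 FPKM (log2 ratio 0.92), and Relb, a subunit of the noncanonical pathway, had a log2 ratio of -0.48. Nfkbiz, which supports transcription of a subset of NF-κB targets, had a log2 ratio of 0.29. The lists share known targets with the ligands and were chosen with results of these libraries known, so these counts are a description.

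Because chemokines are also made by leukocytes, markers of other cell types were read in the same libraries. All 8 FAP markers were detected, with Pdgfra at 30.5 and 32.6 FPKM and Ly6a at 1013 and 706 FPKM, and their summed level was 1667 FPKM in the library labelled TGFBR3 OE and 1770 FPKM in the library labelled control. The 11 macrophage markers summed to 16.0 and 19.0 FPKM, of which Lyz2 made 12.2 and 16.4. Of the other macrophage markers, Adgre1, Tyrobp and Fcer1g had 0 counts in both libraries, and Ptprc, the pan-leukocyte gene CD45, had 0 and 4. Cd68 had 252 and 238 counts, Csf1r 182 and 210, and Laptm5 35 and 19. C1qb had 20 and 0 counts, C1qc 7 and 4, and C1qa 0 and 8. The 4 T and NK cell markers analysed of 9, Cd4, Nkg7, Gzmb and Prf1, had 0 counts in both. Neutrophil markers summed to 5.99 and 4.16 FPKM, nearly all S100a8, with Csf3r at 0 counts in both. Markers of endothelial cells summed to 2.10 and 2.02 FPKM, of muscle cells to 0.50 and 0.55, and of pericytes and smooth muscle to 10.1 and 9.60. The part of other cell types in the ligand differences was not tested.

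The adipocyte markers were lower in the library labelled TGFBR3 OE along with Cxcl12. The 4 markers summed to 34.8 and 68.0 FPKM. At least 2-fold lower were 2 of them, Adipoq at 5.69 and 13.0 FPKM and Cfd at 15.3 and 39.0 FPKM. Among all expressed genes 1.03% were at least 2-fold lower. Plin1 was at 1.15 and 1.98 FPKM (log2 ratio -0.47), and Fabp4 was nearly equal at 12.6 and 13.9 FPKM (log2 ratio -0.14). Of the 8 FAP markers, 3 had a log2 ratio above 0 and 5 below 0, and Dcn (0.14) changed sign to -0.0063 after centring. Dpt, at 3.48 and 8.72 FPKM, was at least 2-fold lower, and Col1a1 had 467 and 870 FPKM (log2 ratio -0.89). Osr1 had 24.8 and 16.2 FPKM (log2 ratio 0.58) and Ly6a a log2 ratio of 0.52. In bulk RNA, fewer cells of a type and less RNA per cell cannot be told apart. The part of these markers in the Cxcl12 difference was not tested.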

How the data were processed

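Transfected primary mouse FAPs gave RNA for sequencing, with 1 library labelled TGFBR3 OE and 1 labelled control. The authors deposited a raw read count for each gene and library. They also deposited FPKM values, which divide a count by transcript length and by a library total. The submitters' processing notes name cutadapt 1.9, HISAT2 2.2.1, StringTie 2.1.6, DESeq2 and edgeR. The study's methods name STAR and FeatureCounts on mm10 instead, and which of them made these files is not stated in the sources used here.

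Ratios of (FPKM + 1) were taken with a pseudocount of 1, and 2-fold was the threshold. Counts gave the intervals (exact Clopper-Pearson, 95%) and the floor of 3 counts. They also gave the plain folds of single genes, put on the FPKM scale by 1 factor for all genes, 1.36. Fold differences between ligand ratios came from counts as well. Both can depart slightly from quotients of the printed FPKM. Intervals of ratios between ligands are Poisson approximations on the log scale. With 1 library per condition no count model or test was run. Depth was 62321027 and 83779203 counts, so the high ligands have narrow intervals and those under 100 counts wide ones. If reads are not independent molecules, the intervals are too narrow. The plain fold from counts and its interval were tested on simulated Poisson counts, which is the model that the interval assumes. The log2 ratio of (FPKM + 1), the ratios between ligands and any spread between cultures were not simulated. Python 3.11.15, numpy 2.4.6, pandas 2.3.3, scipy 1.17.1 and matplotlib 3.10.9 were used.

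The ligands, gene lists and tests were chosen with earlier results of these data known. All 10 ligands are named. Of each other list, up to 4 genes are named by the size of their log2 ratio among those with a mean of at least 1 FPKM, along with the ligands' receptors and the ligand genes between them. Markers, single values that show the limit of detection, Tsc22d3 and the interferon-side genes of smallest log2 ratio are named beyond this rule. They were chosen after their values were seen. Motifs were searched in RefSeq windows without the bases after the start. Some genes of these lists are not reported here. Protein features of the ligands were not analysed here. The alternatives were another pseudocount, none, centring, depth-scaled counts (CPM) computed from the deposited counts, other fold thresholds, and removal of trends over GC content and transcript length.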

Additional observations from a re-analysis of the deposited data

How the results depend on the processing

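The 3 ligands at least 2-fold higher stayed 3 under all 9 alternatives, and the 1 ligand lower became 0 at a 4-fold threshold. The trends over GC content and transcript length were chosen after seeing the data. Other ligands at least 2-fold higher were 4 with a pseudocount of 0.1, 3 without a pseudocount, and 0 with the GC trend removed or at 4-fold. Other ligands at least 2-fold lower were 4 with a pseudocount of 0.1, 3 without one and 0 at 4-fold. Receptors at least 2-fold higher were 1 with a pseudocount of 0.1, 2 without one, 1 from CPM and 1 at 1.5-fold, and receptors lower were 1 with a pseudocount of 0.1 and 2 without one. Each of the added genes had a mean under 1 FPKM.

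The interferon-type median log2 ratio was 6.36 with a pseudocount of 0.1, 6.45 without one, 5.61 centred, 6.03 from CPM, 5.38 with the GC trend removed and 5.65 with the length trend removed. In the same order of settings the Cxcl12 value was -1.10, -1.11, -1.21, -1.12, -1.19 and -1.30. The monocyte and eosinophil median was 0.20 centred, 0.33 from CPM, -0.018 with the GC trend removed and 0.30 with the length trend removed. The neutrophil median was -0.12 centred, -0.33 with the GC trend removed and -0.0072 with the length trend removed. Of the 10 ligands, 8 kept their sign throughout, and Ccl2 and Cxcl1 changed it with the GC trend removed. The cause was not tested.

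No paired analysis was possible because each condition has 1 library, and for the same reason no replicate was left out. Depth limits the receptors and the low ligands, whose values rest on few counts.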

Other observations

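Of 9 genes for proteins that cleave or retain chemokines, 0 were at least 2-fold higher and 0 lower on the log2(FPKM + 1) scale. Over all genes the shares were 1.41% and 0.475%. The median log2 ratio of the 9 genes was 0.00. Sdc2, a heparan sulfate proteoglycan of the cell surface, was at 34.2 FPKM in the library labelled TGFBR3 OE and 22.5 FPKM in the library labelled control (log2 ratio 0.58). Mmp2, a protease known to cut Cxcl12 and Ccl7, was at 130 and 168 FPKM (log2 ratio -0.36), and Sdc1 was at 56.3 and 70.2 FPKM (log2 ratio -0.31). Dpp4, the protease that trims Cxcl10 and Cxcl12, had 21 counts, only 0.05 FPKM, in the library labelled TGFBR3 OE and 0 in the library labelled control. With the 0 set to the floor of 3 counts this is 9.53-fold higher. The 95% counting interval of the fold starts at 7.09. Mmp9, a protease chosen after its values were seen, had 24 and 117 counts, which in plain FPKM is 3.58-fold lower (95% counting interval 2.29 to 5.81).

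Of 8 genes that damp chemokine mRNA, 0 were at least 2-fold higher and 0 lower, beside 1.41% and 0.475% of all genes. The median log2 ratio of the 8 genes was 0.13. Nr3c1, the glucocorticoid receptor that dexamethasone binds, was at 8.25 and 4.78 FPKM (log2 ratio 0.68). Its target Tsc22d3, named although other genes of the list had larger log2 ratios in size, had one of -0.12. Zfp36l1, an RNA-binding protein that promotes mRNA decay, had a log2 ratio of 0.51, and the phosphatase gene Dusp1 one of 0.29.

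Ccrl2, a surface protein related to the chemokine receptors, had 154 counts in the library labelled TGFBR3 OE and 30 in the library labelled control. Its plain fold of FPKM was 6.99 (95% counting interval 4.70 to 10.7), which is a log2 ratio of 0.74 on the scale with a pseudocount of 1. This gene was chosen after its values were seen.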
